A study of Mus musculus with 1600 samples.

Results

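The TGF-beta and CCN genes are 10 genes taken by name from the gene tables of a single-cell study of mouse glomeruli, the capillary tufts that filter blood in the kidney. They are the ligands Tgfb1, Tgfb2 and Tgfb3, the latent carrier Ltbp1, the receptors Tgfbr1, Tgfbr2 and Tgfbr3, the CCN genes Ccn1 and Ccn2, and the matrix gene Tgfbi. All 10 had a row among 45792 gene identifiers, and the rule that lists them uses their names and no measured value. Levels are given as CPM, the share of a gene in the counts summed over the wells of a class in a pool, scaled to 1000000 counts.

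The diabetes group consisted of C57BL/6 mice of the genotype Nos3-/-, which lack endothelial nitric oxide synthase, made diabetic with streptozotocin, which destroys pancreatic beta cells. They received 50 µg per g and day on 5 days from the age of 8 weeks. The control group consisted of Nos3-/- littermates on the same background given citrate vehicle, and both groups were taken at 10 weeks, so every mouse lacked Nos3. Each of 2 experiments held 1 pool of 3 diabetic mice and 1 pool of 3 control mice, and cells were captured on Fluidigm C1 arrays, microfluidic chips whose wells are imaged for the number of cells in them. The replicate is the pool, with n = 2 per condition, and replicate 1 or 2 is the number of the experiment.

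TGF-beta is secreted bound to a latency peptide and, through it, to latent binding proteins that store it in the matrix. Active ligand binds the type II receptor, which recruits and phosphorylates the type I receptor, and Smad proteins carry the signal to the nucleus. CCN proteins are secreted matricellular proteins whose genes respond to TGF-beta and to the YAP-TEAD and SRF pathways of mechanical load. In the glomerulus, TGF-beta signalling is known for its part in mesangial matrix deposition in diabetic kidney disease.

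Of the wells imaged with 1 cell, 128 and 188 were kept in Diabetes replicates 1 and 2, and 120 and 203 in Control replicates 1 and 2. Their summed reads on genes were 6.72e+06 and 3.80e+07 in the diabetes pools and 4.76e+06 and 4.84e+07 in the control pools, so experiment 2 was the deeper one in both conditions. By their markers, 300 wells were classed as endothelial-like, 122 as mesangial-like, 80 as immune-like and 52 as podocyte-like. Another 15 wells were smooth muscle or renin cell-like, 29 were tubular-like, and 41 wells stayed unnamed. Tubular-like sums held tubular markers at 7835 and 10264 CPM in the diabetes pools and 7138 and 2537 CPM in the control pools. Endothelial markers there had 6592 and 5076 CPM in the diabetes pools and 8655 and 15394 CPM in the control pools. Their part in the member levels of this class was not tested. None of the 10 genes was used for clustering. A further 588 wells were imaged as empty and still held RNA, and their values serve as the background of free RNA in each pool. Sex-linked transcripts separated the conditions: the Y-linked genes Ddx3y, Eif2s3y, Kdm5d and Uty together had 154 and 160 CPM in the diabetes pools and 0.279 and 0.605 CPM in the control pools, while Xist had 1.42 and 1.40 CPM in the diabetes pools and 356 and 442 CPM in the control pools. Diabetes and sex can therefore not be told apart in any comparison of the conditions here.

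**Figure D1:**
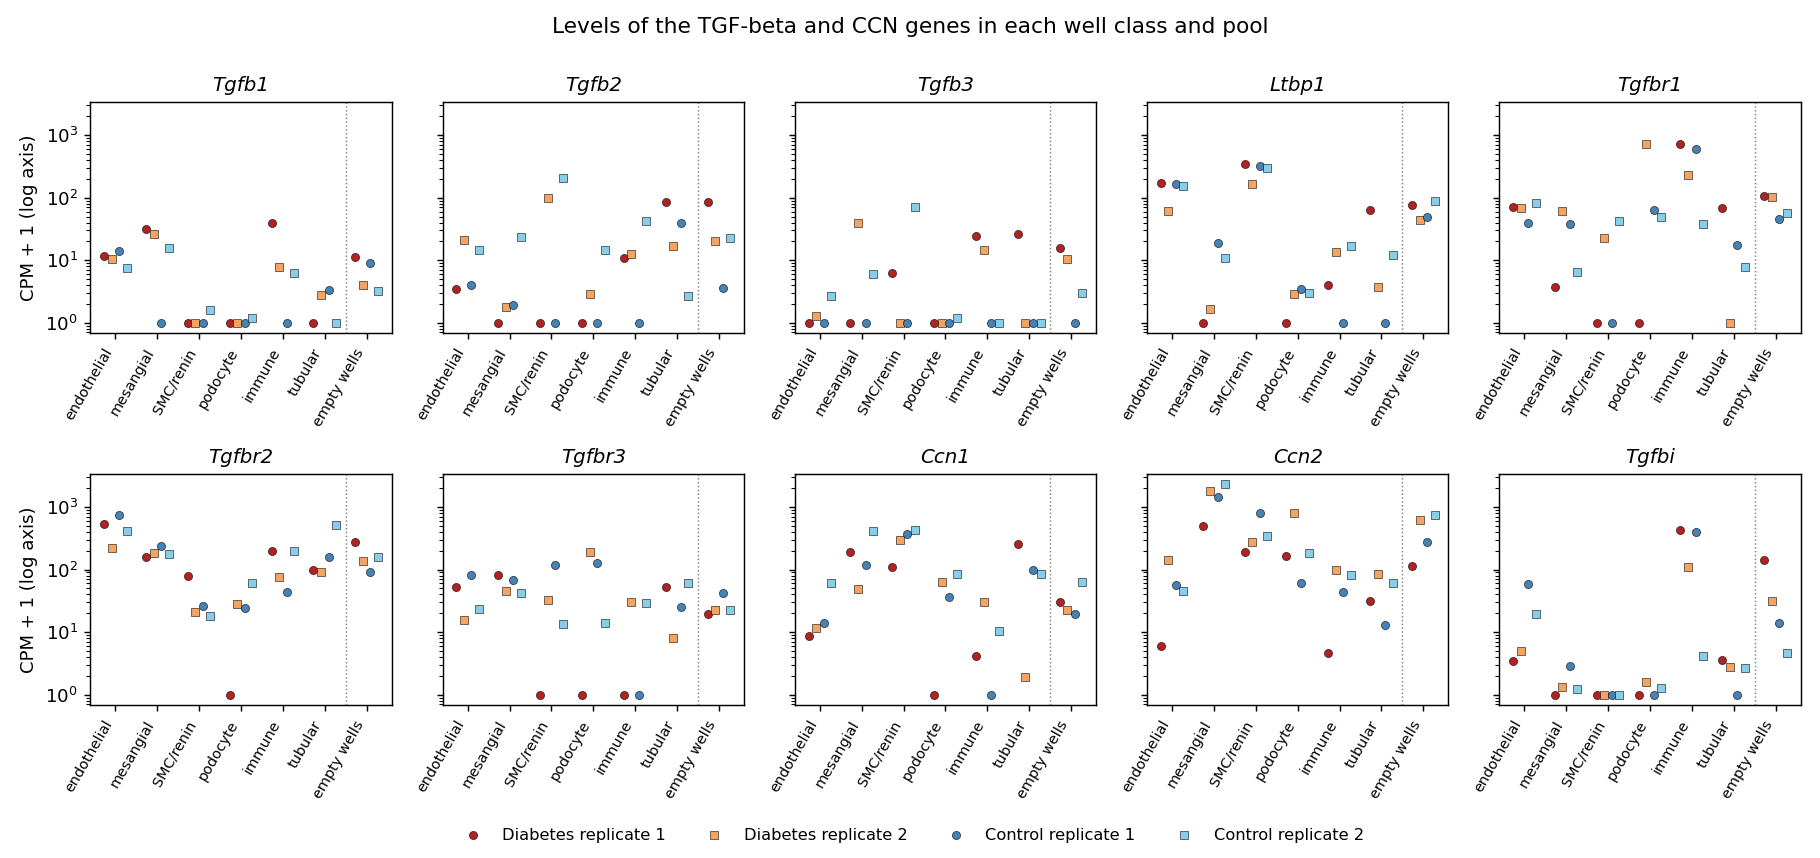
Levels of the 10 genes (CPM + 1, log axis) in 6 classes of wells and, right of the dotted line, in wells imaged empty. Each point is 1 pool, with Diabetes replicates left of Control replicates. Ccn2 stands highest in mesangial-like sums and Tgfbi in immune-like sums in 3 of 4 pools, and the 3 ligands stay below 100 CPM except for Tgfb2 in the smooth muscle or renin cell-like sum of Control replicate 2 (207 CPM).

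Of the ligands, Tgfb1, the most widely expressed isoform in most tissues (chr7:25687002-25705077, GRCm38), had 10.9 and 9.50 CPM in endothelial-like sums of Diabetes replicates 1 and 2 and 13.1 and 6.41 CPM in those of Control replicates 1 and 2. The 4 pools lay close together and the conditions overlapped. Its mean over the 4 pools was 9.99 ± 2.82 CPM (SD) there, 17.7 ± 13.5 CPM in mesangial-like and 12.5 ± 17.3 CPM in immune-like sums, which did not differ beyond their spread. In tubular-like, smooth muscle or renin cell-like and podocyte-like sums it did not exceed 2.39 CPM in a pool, but the pools with 0 counts there allow up to 162 CPM (3 counts, in the 1 podocyte-like well of Diabetes replicate 1), so these classes cannot be placed below the endothelial-like one in every pool. In mesangial-like wells Tgfb1 had 30.4 and 25.6 CPM in the diabetes pools and 0 and 14.9 CPM in the control pools, with 82.3% of the counts of Diabetes replicate 2 from 1 well. A count of 0 in Control replicate 1 allows up to 2.80 CPM (3 counts), and this and all intervals below cover counting error only, since reads without molecular identifiers are not independent molecules.

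Tgfb2, an isoform prominent in development (chr1:186622792-186705989), was carried by few wells. In smooth muscle or renin cell-like sums, its highest class by mean, it had 0 and 96.3 CPM in the diabetes pools and 0 and 207 CPM in the control pools. A single well gave 100% of the counts of Diabetes replicate 2 and 90.4% of those of Control replicate 2. In tubular-like sums it ranged from 1.71 to 85.0 CPM over the 4 pools, and in wells imaged empty 84.0 and 19.4 CPM in the diabetes pools and 2.65 and 21.7 CPM in the control pools. Among the unnamed wells of Diabetes replicate 1 it reached 440 CPM, 79.6% of it from 1 well. Tgfb2 ranges over pools overlapped between every pair of neighbouring classes, so the data give no order of classes for this gene. Tgfb3 (chr12:86056745-86079041), the third isoform, reached 38.4 CPM in the mesangial-like sum of Diabetes replicate 2, 69.1 CPM in the smooth muscle or renin cell-like sum of Control replicate 2 and at most 1.73 CPM in endothelial-like sums. Its highest value was 242 CPM, in the unnamed wells of Diabetes replicate 1. In immune-like sums it had 23.7 and 13.5 CPM in the diabetes pools and 0 and 0 CPM in the control pools, where 3 counts would be 21.4 and 3.12 CPM.

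Ltbp1, the latent TGF-beta binding protein that tethers the latent complex to the matrix (chr17:75005568-75392512), had its highest means in smooth muscle or renin cell-like and endothelial-like wells. Endothelial-like sums had 169 and 59.8 CPM in the diabetes pools and 164 and 155 CPM in the control pools. Smooth muscle or renin cell-like sums, from 3 to 5 wells a pool, had 340 and 165 CPM in the diabetes pools and 323 and 300 CPM in the control pools. Each of these 8 sums lay above the highest podocyte-like (2.49 CPM), immune-like (15.6 CPM) and mesangial-like (17.7 CPM) sum. Tubular-like sums reached 61.8 CPM in Diabetes replicate 1, just above the endothelial-like sum of Diabetes replicate 2, and unnamed wells reached 213 CPM in Control replicate 1. Mesangial-like wells had 0 and 0.689 CPM in the diabetes pools and 17.7 and 10.0 CPM in the control pools, and the 0 counts of Diabetes replicate 1 allow up to 8.28 CPM. Endothelial-like sums were 1.40 to 3.36 times the level of empty wells of the same pool. After each well was thinned to 10000 reads, 37.3% and 20.4% of endothelial-like wells of the diabetes pools and 43.6% and 30.3% of those of the control pools had a Ltbp1 count. In experiment 1 the exact 95% intervals were 25.8 to 50.0% in the diabetes pool and 27.8 to 60.4% in the control pool. They treat wells as trials within 1 pool and do not measure the spread between mice.

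Among the receptors, Tgfbr2, the type II receptor that binds ligand (chr9:116084293-116175360), had its highest mean in endothelial-like wells. Endothelial-like sums had 534 and 219 CPM in the diabetes pools and 733 and 416 CPM in the control pools. Mesangial-like sums had 160 and 184 CPM in the diabetes pools and 240 and 177 CPM in the control pools. The endothelial-like level was the higher in 4 of 4 pools, by 1.19 to 3.34 times, and it was 1.61 to 8.03 times that of empty wells of the same pool. It was the highest class in 3 of 4 pools among classes with at least 5 wells, the exception being Control replicate 2, where 7 tubular-like wells had 511 CPM. Those wells also held endothelial markers at 15394 CPM, beside 2537 CPM of tubular markers, and the part of endothelial RNA in their Tgfbr2 value was not tested. In smooth muscle or renin cell-like and podocyte-like sums Tgfbr2 did not exceed 78.6 CPM. In thinned endothelial-like wells a Tgfbr2 count was found in 80.6% and 59.1% of the wells of the diabetes pools and in 64.1% and 74.2% of those of the control pools. The 3 endothelial-like clusters had similar Tgfbr2 means of 441 ± 169, 565 ± 327 and 363 ± 295 CPM (SD, n = 4 pools), led in the same order by Ly6c1, by Kdr and by Fabp4.

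Tgfbr1, the type I receptor kinase (chr4:47353222-47414931), had its highest mean in immune-like wells, which were the highest class in 2 of 4 pools. Their sums had 719 and 228 CPM in the diabetes pools and 605 and 37.5 CPM in the control pools, so in each condition the value was higher in experiment 1 than in experiment 2. The immune markers summed over the same wells had the same split, with 68722 and 10908 CPM in the diabetes pools and 62993 and 15271 CPM in the control pools. The immune-like wells of the experiments also differed in kind: at Leiden resolution 1.2 they split into a cluster led by H2-Aa, H2-Ab1 and H2-Eb1, with 22 and 3 wells of the diabetes pools and 3 and 2 of the control pools, and one led by Gm26870, Lyz2 and Fyb, with 5 and 42 wells of the diabetes pools and 2 and 3 of the control pools. Erythroid markers in immune-like sums had 2.58 and 19468 CPM in the diabetes pools and 0 and 0 CPM in the control pools. At most 15% mitochondrial reads were found in 24 of 27 and 13 of 43 wells of the diabetes pools. In the control pools this held for 4 of 5 and 3 of 5 wells. The part of these differences in the Tgfbr1 values was not tested. Endothelial-like sums held 70.9 and 66.5 CPM in the diabetes pools and 38.2 and 80.2 CPM in the control pools, below the immune-like level in 3 of 4 pools. A value of 729 CPM in podocyte-like wells of Diabetes replicate 2 came to 99.2% from 1 well. Tgfbr3, the co-receptor betaglycan, which presents ligand to the type II receptor (chr5:107106570-107289629), had means of 14.4 CPM in immune-like to 82.1 CPM in podocyte-like sums, with overlapping ranges between all neighbouring classes. Podocyte-like sums had 0 and 190 CPM in the diabetes pools and 125 and 13.2 CPM in the control pools. In mesangial-like sums it had 80.0 and 44.0 CPM in the diabetes pools and 68.2 and 41.7 CPM in the control pools. The conditions were close in each experiment, but 1 well held up to 82.8% of the Tgfbr3 counts of a mesangial-like pool.

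Ccn2, also known as connective tissue growth factor (chr10:24595442-24598683), was highest in mesangial-like wells. Mesangial-like sums had 493 and 1783 CPM in the diabetes pools and 1463 and 2298 CPM in the control pools, and this class was the highest in 4 of 4 pools. The mean was 1509 ± 760 CPM (SD, n = 4 pools), against 405 ± 277 CPM in smooth muscle or renin cell-like, 303 ± 341 CPM in podocyte-like and 61.3 ± 57.0 CPM in endothelial-like sums. The ranges over pools of the first and second of these classes overlapped (493 to 2298 against 193 to 811 CPM), although the mesangial-like sum was the higher within each pool. Against endothelial-like sums of the same pool it was 12.7 to 100.2 times as high. After thinning, Ccn2 was found in 2 of 3 and 22 of 22 mesangial-like wells of the diabetes pools and in 25 of 27 and 65 of 66 of the control pools. The median mesangial-like well had 621 and 1604 CPM in the diabetes pools and 1332 and 1987 CPM in the control pools.

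Ccn2 was also read in wells without a cell. Wells imaged empty had 112 and 618 CPM in the diabetes pools and 277 and 740 CPM in the control pools, and 89 of 98 and 111 of 111 empty wells of Diabetes and Control replicate 2 had a count. Endothelial-like wells had 4.92 and 140 CPM in the diabetes pools and 56.3 and 43.7 CPM in the control pools, which is lower than the empty wells by 4.40 to 22.7 times. A Ccn2 count in 74.2% and 87.6% of endothelial-like wells of Diabetes and Control replicate 2 is thus below the share in empty wells (90.8% and 100%), which had a median of 32994 and 33610 reads against 176715 and 219072 in kept wells. A share at or below that of empty wells does not show endothelial expression. Single endothelial-like wells reached 4721 CPM in Diabetes replicate 2 and 1848 CPM in Control replicate 1. Mesangial-like sums exceeded the empty wells of the same pool by 2.89 to 5.28 times. Mesangial markers, summed, took 434 and 2890 CPM of empty wells of the diabetes pools and 1435 and 3231 CPM of those of the control pools, the same order of pools as Ccn2.

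**Figure D2:**
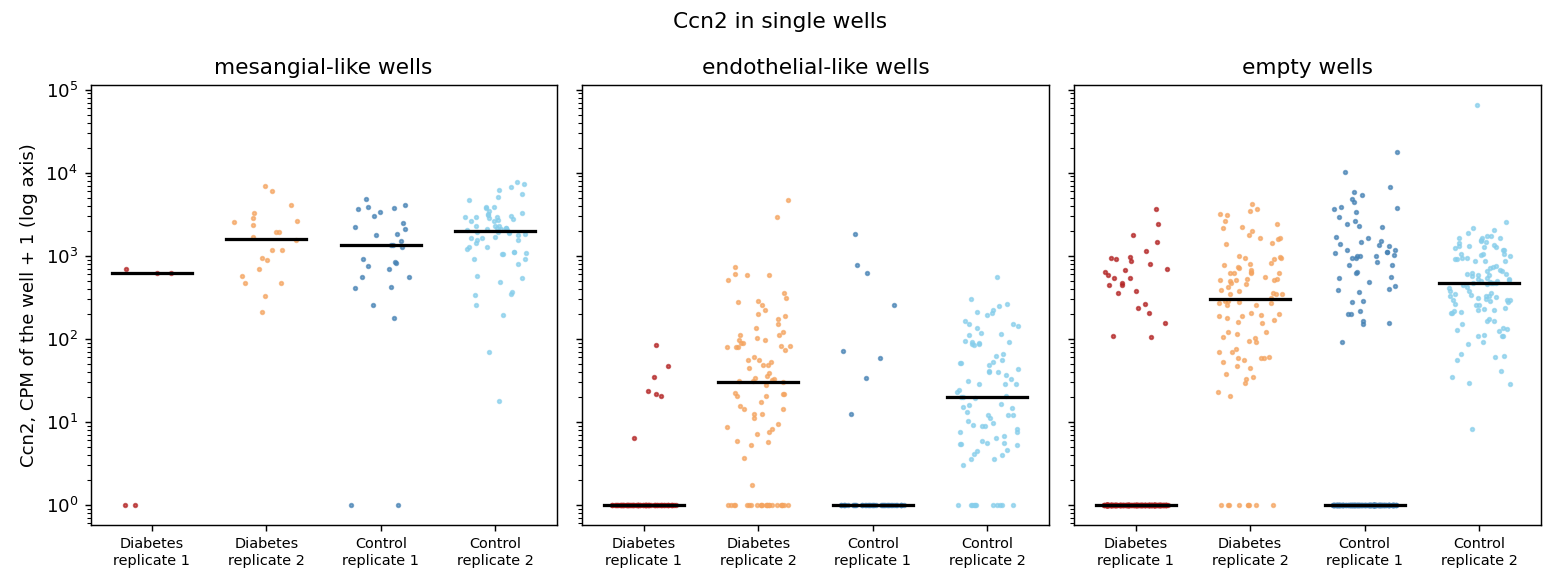
Ccn2 in single wells (CPM of the well + 1, log axis) of mesangial-like, endothelial-like and empty wells, by pool. Each point is 1 well and each line the median of the wells: mesangial-like medians lie between 621 and 1987 CPM, endothelial-like medians between 0 and 28.9 CPM, and empty wells in experiment 2 have medians of 297 (diabetes) and 466 CPM (control).

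Ccn1, also known as Cyr61 (chr3:145646976-145649981), had its highest mean in smooth muscle or renin cell-like wells, and among classes with at least 5 wells in a pool no class was the highest in more than 1 pool. Mesangial-like sums had 188 and 48.2 CPM in the diabetes pools and 117 and 419 CPM in the control pools. Endothelial-like sums had 7.78 and 10.7 CPM in the diabetes pools and 13.1 and 59.3 CPM in the control pools, lower than the mesangial-like sum by 4.51 to 24.1 times within a pool. Smooth muscle or renin cell-like sums had 111 and 295 CPM in the diabetes pools and 364 and 435 CPM in the control pools, with 65.1% to 100% of a pool's counts from 1 well. Tubular-like sums had 256 and 0.891 CPM in the diabetes pools and 98.0 and 85.4 CPM in the control pools, and podocyte-like sums 0 and 62.3 CPM in the diabetes pools and 35.7 and 84.5 CPM in the control pools. Of the other named classes, only the endothelial-like and immune-like sums lay below the mesangial-like sum in every pool.

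The upstream sequence of Ccn1 is shown because it was the only one of the 9 upstream sequences found for the members that held the core letters of the TEAD motif. It gives the 250 bases before the gene start from RefSeq (GRCm38.p6, minus strand, chr3:145649986-145650235), 5′ to 3′, with matches in capitals, CATTCC from position -103 to -98 for the TEAD core and GGAAGT from -225 to -220 for the ETS core, counted back from -1 at the last base shown.
Ccn1: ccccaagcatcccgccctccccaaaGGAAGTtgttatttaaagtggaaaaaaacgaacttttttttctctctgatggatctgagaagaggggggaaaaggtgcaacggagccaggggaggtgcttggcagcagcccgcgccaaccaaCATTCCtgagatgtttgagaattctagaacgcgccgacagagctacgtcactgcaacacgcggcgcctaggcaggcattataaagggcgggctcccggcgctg
The motifs searched on both strands were GGAATG (TEAD), TGANTCA (AP-1), CAGACA (Smad), GGAAGT (ETS) and the CArG box. Of 32851 RefSeq promoters cut to the same length, 12.6% held the TEAD core, 6.75% AP-1, 17.1% the Smad core, 19.7% the ETS core and 1.47% a CArG box. RefSeq entries were matched for 7 of the 10 members, with 9 sequences in all. No entry was found for Ccn2, Tgfb3 and Tgfbr3, so their upstream sequences were not searched. Smad core letters stood upstream of Tgfb2 and of the second start of Ltbp1 and of Tgfbr1. A match in these windows is a description of letters and not of binding.

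Tgfbi, a secreted matrix protein induced by TGF-beta (chr13:56609523-56639562), had its highest mean in immune-like wells. Immune-like sums had 422 and 109 CPM in the diabetes pools and 395 and 3.12 CPM in the control pools. As with Tgfbr1, the values were higher in experiment 1, and the value of Control replicate 2 rested on 3 counts in 5 wells. In that pool endothelial-like wells had the higher level (18.5 CPM), and unnamed wells of Control replicate 1 had 367 CPM. The kinds of immune-like wells differed between experiments as described for Tgfbr1, and the erythroid markers and mitochondrial reads given there apply here too. Mesangial-like sums did not exceed 1.87 CPM, podocyte-like sums did not exceed 0.617 CPM outside Diabetes replicate 1, whose 1 well sets a limit of only 162 CPM, and no count was found in smooth muscle or renin cell-like wells, where 3 counts would be 1.76 to 24.8 CPM per pool. Thinned immune-like wells had a Tgfbi count in 60.9% and 25.6% of the wells of the diabetes pools, 14 of 23 and 11 of 43, and in 2 of 4 and 0 of 5 of the control pools. A count of 0 in 5 wells leaves an exact 95% upper limit of 52.2%.

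In empty wells some members had the same order of pools as the markers of a cell type, and others did not. Tgfbi had 139 and 30.4 CPM in empty wells of the diabetes pools and 13.2 and 3.62 CPM in those of the control pools, and immune markers there summed to 9683 and 1993 CPM in the diabetes pools and 1125 and 240 CPM in the control pools. Tgfbr2 had 275 and 136 CPM in empty wells of the diabetes pools and 91.3 and 158 CPM in those of the control pools, beside endothelial markers of 11362 and 6803 CPM in the diabetes pools and 4888 and 8748 CPM in the control pools. For these pairs, as for Ccn2 and mesangial markers, the 4 pools had the same order by gene and by markers. The order differed for Ltbp1, with 76.8 and 42.8 CPM in empty wells of the diabetes pools and 49.0 and 86.6 CPM in those of the control pools, against endothelial markers. It also differed for Tgfbr1 against immune markers and for Ccn1 against mesangial markers. The pairs plotted are those with the same order and were chosen after their values were seen. In empty wells, the number of cells of a type and the RNA each of them released cannot be told apart.

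**Figure D3:**
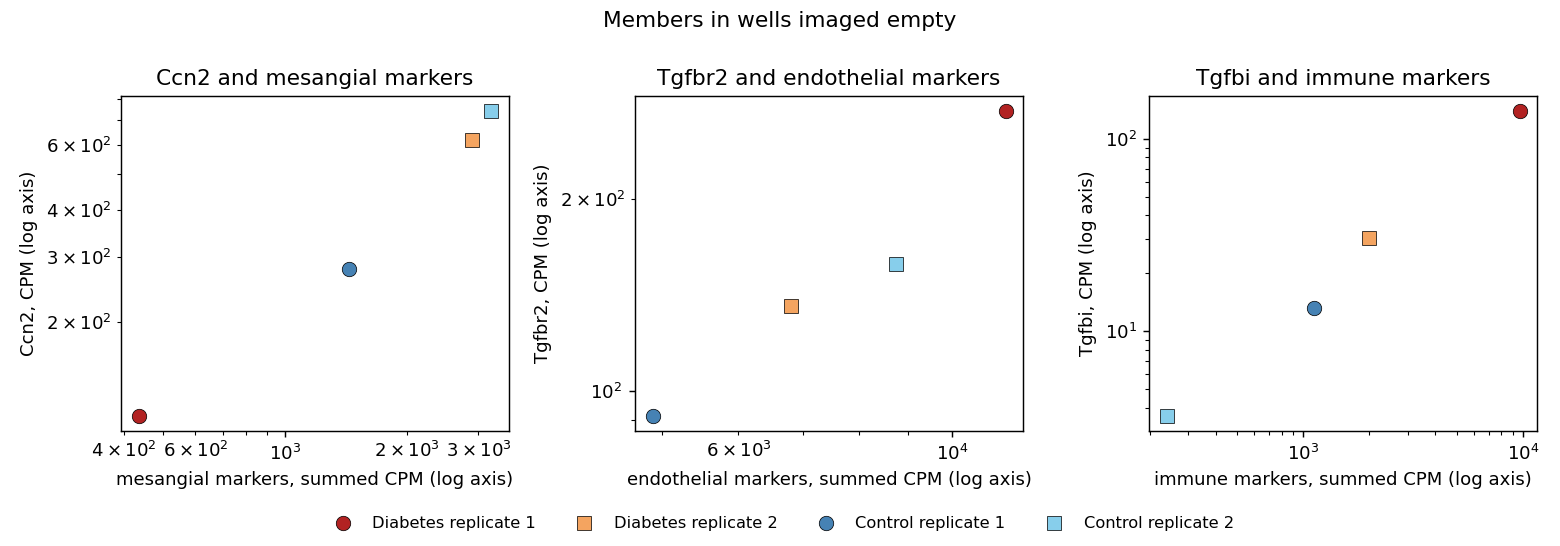
Ccn2, Tgfbr2 and Tgfbi in wells imaged empty (CPM, log axis) against the summed level of mesangial, endothelial and immune markers in the same wells (CPM, log axis), with 1 point per pool. In each panel the pool with the highest marker sum also has the highest member level, which is Control replicate 2 for Ccn2 (740 CPM) and Diabetes replicate 1 for Tgfbr2 (275 CPM) and Tgfbi (139 CPM).

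The genes whose levels were most like those of a member, by Pearson's r of log2(CPM + 1) over 19 sums of class and pool with at least 5 wells, are given as a description, since the sums share pools, depth and class markers. For Ccn2 they were Gm9780 (r = 0.907), Plac9a (0.901) and Plac9b (0.901), near-identical copies between which reads may have been split. For Tgfbr2 they were Ces2g (0.933), the adenylate cyclase Adcy4 (0.879) and Mum1 (0.865). For Tgfbi they were Cfp, the complement regulator properdin (0.915), AI467606 (0.912) and Tnfrsf11a, the receptor RANK (0.900). For Ccn1 they were the transcription factor Foxc1 (0.871), the actin regulator Enah (0.858) and Samd4 (0.821), and for Ltbp1 Lhfpl2 (0.854), the endothelial guidance receptor Robo4 (0.840) and Rflna (0.840). Tgfbr1 was nearest to Actr3 (0.866), Tgfbr3 to Sema5a (0.869) and Tgfb2 to Med14 (0.827), while Tgfb1 and Tgfb3 had a mean under 20 CPM in every class.

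Diabetes against control was tested on the sums of each class, with the experiment as a block, in the 3 classes with at least 5 wells in every pool. No member passed the adjusted threshold of 0.05 in any of them by edgeR's quasi-likelihood test. In endothelial-like wells 0 of 9 tested members were called, against 0.00791% of 12642 genes (1 gene, Xist). The Y-linked genes given above were not called there, so a call of 0 does not show that levels were equal. In mesangial-like wells 0 of 8 were called, against 0.127% of 10268 genes, and in immune-like wells 0 of 9, against 0.0484% of 8264 genes. At an unadjusted p under 0.05 there were 1, 1 and 0 members in the same order, against 4.14%, 2.71% and 2.67% of all genes. DESeq2 and limma on mean log values also called 0 members. Without the block the genes called numbered 2, 1 and 0 in place of 1, 13 and 4. A filter on low counts left out Tgfb3 in endothelial-like, Tgfb2 and Tgfbi in mesangial-like and Tgfb1 in immune-like sums. The podocyte-like class, with 1 and 8 diabetes and 21 and 22 control wells, was not tested.

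In endothelial-like wells 3 of the 9 tested members had a positive and 6 a negative log2 fold change, with a median of -0.63 beside 0.05 for all genes. Tgfbr2, with the values given above, had a log2 fold change of -0.65 (SE 0.30, edgeR p = 0.0684, adjusted p = 1.00). The log2 difference was -0.46 in experiment 1 and -0.92 in experiment 2, and the ranges of the conditions overlapped. The fitted value ranged from -1.21 without Diabetes replicate 1 to -0.14 without Diabetes replicate 2. Tgfbi had 2.49 and 3.99 CPM in the diabetes pools and 56.9 and 18.5 CPM in the control pools, a log2 fold change of -3.27 (SE 1.38, edgeR p = 0.0474, adjusted p = 1.00). The conditions did not overlap for Tgfbi and Ccn1, as for 30.5% of all genes tested, and 69.3% of the Tgfbi counts of a pool came from 1 well. Immune markers in the same endothelial-like wells differed between the conditions in the opposite direction. They had 495 and 300 CPM in the diabetes pools and 124 and 75.7 CPM in the control pools. Ccn1 had a log2 fold change of -1.60 (SE 1.13), Ltbp1 of -0.63 (SE 0.49), Tgfbr3 of -0.61 (SE 0.70), Ccn2 of -0.71 (SE 1.43) and Tgfbr1 of 0.34 (SE 0.59), each with an edgeR adjusted p = 1.00. The part of the immune markers in the Tgfbi values was not tested. Endothelial-like sums of Ccn1 and Ccn2 lay below the empty wells of the same pool, as given above.

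In mesangial-like wells Ccn2 had a log2 fold change of -0.97 (SE 0.41, edgeR p = 0.0176, adjusted p = 1.00), beside a median of -0.44 for all genes. The log2 difference was -1.57 in experiment 1, with only 5 wells in the diabetes pool, against -0.37 in experiment 2, and without Diabetes replicate 1 the log2 fold change was 0.05. The p rests on a spread shared over all genes, because the prior degrees of freedom of this fit were infinite. Ccn1 had opposite signs in the experiments, with a log2 difference of 0.67 in experiment 1 and -3.10 in experiment 2 and a fitted value of -1.25 (SE 0.97, edgeR adjusted p = 1.00). Tgfbr2 and Tgfbr3 had log2 fold changes of -0.27 (SE 0.82) and 0.15 (SE 1.72), and Tgfbr1 of 0.23 (SE 4.22). For Tgfbr1, 1 well held 97.6% of the counts of Diabetes replicate 2. For the others, 1 well held up to 63.6% (Ccn2), 70.6% (Ccn1), 70.7% (Tgfbr2) and 82.8% (Tgfbr3) of the counts of a pool. Of the 8 tested members 4 were positive and 4 negative, with a median of -0.06. Conditions did not overlap for 2 of the 8 tested members (Tgfb1 and Ltbp1, each under 20 CPM), beside 33.3% of all genes tested. Fibroblast markers in these wells summed to 5056 and 1530 CPM in the diabetes pools and 433 and 612 CPM in the control pools, and mesangial markers to 7023 and 7268 CPM in the diabetes pools and 10368 and 9445 CPM in the control pools. Of the markers tested, 1 of 4 fibroblast genes was called higher and 1 of 7 mesangial genes lower. Their part in the Ccn2 values was not tested.

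In immune-like wells the diabetes sums came from 27 and 43 wells and the control sums from 5 wells in each pool. Conditions did not overlap for 1 of the 9 tested members (Tgfb3), beside 39.2% of all genes tested. Tgfbi had a log2 fold change of 2.59 (SE 1.97, edgeR p = 0.188, adjusted p = 1.00), with a difference of 0.09 in experiment 1 and 4.73 in experiment 2. Tgfbr1 had a log2 fold change of 1.56 (SE 1.24, edgeR p = 0.209, adjusted p = 1.00), with differences of 0.25 and 2.57. Tgfbr2 (0.49, SE 2.23) and Ccn2 (-1.43, SE 2.92) had errors larger than their values. The median of all genes in this fit was 1.01 (0.74 with RLE scaling), above the median of the 9 tested members (0.49). Tgfbi passed in a single alternative, the fit without Control replicate 1, with a log2 fold change of 6.14 and an edgeR adjusted p = 0.0146 (0.0146 to 1.00 over its alternatives), in which 452 genes were called.

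**Figure D4:**
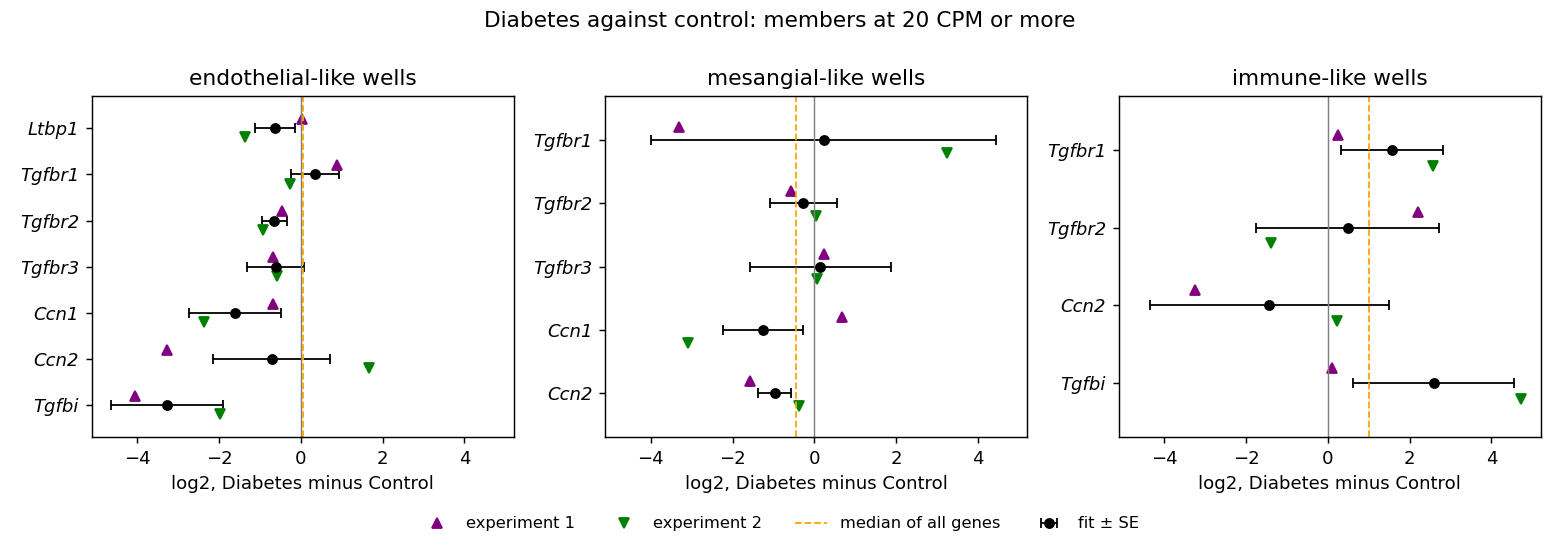
Log2 fold change (Diabetes minus Control) of each member with a mean of at least 20 CPM in endothelial-like, mesangial-like and immune-like sums. Black points with bars are the fitted value ± SE, triangles the difference of log2(CPM + 1) in experiment 1 (pointing up) and 2 (pointing down), and the dashed line the median of all genes (0.05, -0.44 and 1.01); for Ccn2 in endothelial-like wells the experiments lie on opposite sides of 0 (-3.27 and 1.66).

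Whether the diabetes effect of a member differed between classes was tested in 1 model of all 3 classes. No member passed for any pair of classes, against 0.00755%, 0.00755% and 0.0151% of 13241 genes, and the smallest adjusted p was 0.516. At an unadjusted p under 0.05 were 2 members, both for immune-like minus endothelial-like wells. Tgfbi had a difference of log2 fold changes of 5.94 (SE 2.16, edgeR p = 0.0117, adjusted p = 0.728), and Tgfb3, with 0 counts in the immune-like control sums, had p = 0.0416 (adjusted p = 0.728). Ccn2 had a difference of 0.22 (SE 1.15) between mesangial-like and endothelial-like wells.

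The other genes of the pathway were read from lists fixed by function, and 1 of them was called in the endothelial-like and mesangial-like fits. Acta2, smooth muscle actin and a known TGF-beta response gene, rose in mesangial-like wells to 957 and 1727 CPM in the diabetes pools, against 110 and 379 CPM in the control pools (log2 fold change 2.64, SE 0.50, edgeR adjusted p = 0.000298). Of its counts in a pool up to 79.1% came from 1 well. As for Ccn2, the p rests on a spread shared over all genes. Genes called in this class numbered 13 in the main fit, 1 without the block and 2 by limma on mean log values. Acta2 is also 1 of the smooth muscle or renin cell markers. These summed to 5454 and 6806 CPM in the diabetes pools and 4308 and 5531 CPM in the control pools. The list of TGF-beta responsive genes holds 25 genes, of which 20 were tested in mesangial-like wells. Of these, 15 had a positive fold change, 1 was called higher and 0 lower (median log2 fold change 0.55 beside -0.44 for all genes). The list shares Col1a1 and Col1a2 with the fibroblast markers, and Tagln and Acta2 with the smooth muscle or renin cell markers. Fibroblast markers were higher in the diabetes pools of these wells, as given above, and their part in this median was not tested. Fn1, fibronectin, did not pass (edgeR adjusted p = 0.081), with 724 and 15.4 CPM in the diabetes pools and 0 and 4.36 CPM in the control pools, and a single well held 99.8% of a pool's Fn1 counts. Postn, the matrix protein periostin, had 0 and 0 CPM in the diabetes pools and 131 and 18.4 CPM in the control pools (edgeR adjusted p = 1.00), and 1 well held 99.6% of the Postn counts of a pool. Tsc22d1, first described as a TGF-beta stimulated transcript, had 700 and 236 CPM in the diabetes pools and 257 and 124 CPM in the control pools (edgeR adjusted p = 1.00). Up to 90.0% of its counts in a pool came from 1 well.

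In endothelial-like wells the same list had 20 tested genes, 14 positive, with 0 called and a median of 0.59 beside 0.05 for all genes. Tsc22d1 and Timp3 had higher levels in the diabetes pool of both experiments and did not pass (edgeR adjusted p = 1.00 for each). Tsc22d1 had 305 and 466 CPM in the diabetes pools and 164 and 163 CPM in the control pools. Timp3, an inhibitor of metalloproteinases, had 3608 and 2624 CPM in the diabetes pools and 1976 and 1791 CPM in the control pools. The pools of the conditions did not overlap for either gene, as for 30.5% of all genes tested, and both were named for their small p.

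Of the 19 genes of latency and activation, 16 were tested in endothelial-like wells, 11 of them positive and 0 called (median 0.35). Plat, tissue plasminogen activator, which makes plasmin, had 4006 and 3418 CPM in the diabetes pools and 2215 and 1511 CPM in the control pools (log2 fold change 1.06, SE 0.23, edgeR p = 0.00194, adjusted p = 1.00). Itgb5, an integrin subunit that pairs with the alpha v chain, had 32.7 and 50.9 CPM in the diabetes pools and 98.0 and 112 CPM in the control pools (edgeR adjusted p = 1.00). Lrrc32, the anchor of latent TGF-beta on cell surfaces, had 229 and 121 CPM in the diabetes pools and 41.2 and 117 CPM in the control pools (edgeR adjusted p = 1.00). In mesangial-like wells 15 of these genes were tested, 7 positive and 0 called (median -0.23), and Itgav, the alpha v chain itself, had 212 and 307 CPM in the diabetes pools and 65.4 and 144 CPM in the control pools. A single well held up to 84.4% of the Itgav counts of a pool.

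The 12 receptors of the endothelial branch and decoys had 9 tested genes in each of these classes. In endothelial-like wells 5 were positive and 0 called (median 0.23), and in mesangial-like wells 7 were positive and 0 called (median 0.71). Lrg1, a modulator of endothelial TGF-beta signalling, had 40.1 and 145 CPM in endothelial-like wells of the diabetes pools and 20.9 and 15.6 CPM in those of the control pools (edgeR adjusted p = 1.00), where 1 well held 82.2% of the Lrg1 counts of a pool. Bambi, a pseudoreceptor that dampens signalling, had 47.0 and 25.2 CPM in the diabetes pools and 2.39 and 10.9 CPM in the control pools (edgeR adjusted p = 1.00). In mesangial-like wells Fstl1, a follistatin-like secreted protein, had 837 and 884 CPM in the diabetes pools and 288 and 494 CPM in the control pools (edgeR adjusted p = 1.00). A single well held up to 50% of the Bambi and 65.1% of the Fstl1 counts of a pool in these classes. Of the 10 genes of this list that reached 20 CPM in a class, 6 had their highest mean level in endothelial-like wells. The list shares Eng with the endothelial markers and Dcn with the fibroblast markers, so this count is not independent of how the classes were named.

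The 20 Smads and regulators were all tested in endothelial-like wells, with 12 positive, 0 called and a median of 0.08, and 8 of them had their highest mean level there. In mesangial-like wells 19 were tested, 10 positive and 0 called (median 0.12). Ppm1a, a phosphatase of Smad proteins, had 35.1 and 34.5 CPM in endothelial-like wells of the diabetes pools and 140 and 67.8 CPM in those of the control pools (edgeR adjusted p = 1.00). In mesangial-like wells the receptor-regulated Smad5 had 262 and 117 CPM in the diabetes pools and 49.5 and 33.4 CPM in the control pools (edgeR adjusted p = 1.00). A single well held up to 57.0% of the Ppm1a and 78.9% of the Smad5 counts of a pool in these classes. The other CCN genes (Ccn3, Ccn4, Ccn5 and Ccn6) together did not exceed 38.4 CPM in a mesangial-like pool, and 1 of 4 was tested there and not called.

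Of the 21 genes responsive to YAP-TEAD and SRF, 19 were tested in each class, with 12 positive in endothelial-like and 10 in mesangial-like wells, 0 called and medians of 0.17 and 0.22. Their summed level was highest in smooth muscle or renin cell-like sums (17682 ± 3713 CPM, SD, n = 4 pools) and mesangial-like sums (13881 ± 1113 CPM). It was lower in immune-like (7629 ± 2030 CPM), podocyte-like (5477 ± 784 CPM), endothelial-like (3630 ± 719 CPM) and tubular-like sums (3405 ± 943 CPM). The list shares Myl9 with the smooth muscle or renin cell markers, and its genes were not left out of clustering. The order of classes is therefore not independent of how the classes were built. Myl9, the regulatory myosin light chain, had 3.74 and 48.3 CPM in endothelial-like wells of the diabetes pools and 28.7 and 146 CPM in those of the control pools (edgeR adjusted p = 1.00). Up to 83.3% of these Myl9 counts in a pool came from 1 well. Immediate-early and dissociation genes, which rise during tissue digestion, summed to 1725 and 788 CPM in mesangial-like wells of the diabetes pools and 1175 and 1464 CPM in those of the control pools. Diabetes replicate 2 was the lowest and Control replicate 1 the next lowest pool for both this sum and Ccn1. The highest pool differed, with Diabetes replicate 1 for this sum and Control replicate 2 for Ccn1. The part of this list in the Ccn1 values was not tested. Among the immediate-early genes Klf4 had 238 and 94.6 CPM in endothelial-like wells of the diabetes pools and 428 and 201 CPM in those of the control pools, and Fos had 0 and 8.92 CPM in mesangial-like wells of the diabetes pools and 21.5 and 162 CPM in those of the control pools (edgeR adjusted p = 1.00 for both). A single well held up to 72.7% of these Fos counts in a pool.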

How the data were processed

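Single glomerular cells were sequenced from 2 pools of diabetic and 2 pools of control mice. The authors' deposited tables hold expected counts, estimated reads for each gene in each well (74.1% and 79.3% of the values above 0 were whole, within 1e-09, in experiments 1 and 2). Per the submitters' processing notes, cutadapt 1.11, STAR 2.4.2a, BWA 0.7.17-r1188, featureCounts 1.5.1 and the build mm10 were used; the sources used here do not give how shared reads were split or whether strand was used, so values of near-identical or antisense genes are uncertain, and levels are not compared between genes. Genes were named through GENCODE M21 (45229 of 45792 identifiers).

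Wells with 1 imaged cell, at least 500 genes and at most 30% mitochondrial reads were kept, with no doublet caller. The 2000 most variable genes, without the 63 member and pathway genes that are not markers, gave 15 principal components, 15 neighbours and Leiden clusters at resolution 0.8 (scanpy 1.11.5, igraph 0.11.9). A cluster was named from a type's markers if at least 3 were detected in 25% of its wells, if they led its 50 leading genes, and if they were more numerous among its top 10 than those of any other type. Expected counts were summed per class and pool, rounded, and tested with edgeR 4.0.16 in R 4.3.3 (quasi-likelihood, robust, TMM, filterByExpr), with Benjamini-Hochberg adjustment over all genes and a threshold of 0.05. The block is the experiment, whose array both conditions share per the labels, and 1 residual degree of freedom remains. Deviations of same-numbered pools correlated at 0.138, 0.105 and 0.139 over genes in endothelial-like, mesangial-like and immune-like sums. The prior degrees of freedom were 6.36 in endothelial-like sums and infinite in the other fits. The test was checked on simulated data with large changes and no effect of the experiment. It was not checked for smaller changes. Alternatives were DESeq2 1.42.0, limma 3.58.1 and the settings of the closing section. P-values rest on the spread between pools of mice. In the fits with infinite prior degrees of freedom that spread is shared over all genes and is not the gene's own.

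All members were named, fold changes were given for members with a mean of at least 20 CPM in the class, and of each pathway list the called genes and up to 4 with the smallest p among those with a mean of at least 20 CPM in endothelial-like or mesangial-like sums were eligible. For likeness, the 3 genes with the highest r were eligible. Members and lists were chosen with earlier results of these data known. Some items that met these rules are not reported here.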

Additional observations from a re-analysis of the deposited data

How the results depend on the processing

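Of 218 alternative fits of 16 member fold changes, 194 kept the sign and 24 had the other one, 7 with all pools and 17 with a pool left out. With all pools these were Tgfbr1 in endothelial-like wells thinned to 10000 reads (-0.15), Ccn2 there without the replicate block (0.70) and after subtraction of the empty-well profile (0.069), Tgfbr1 (-0.064), Tgfbr2 (0.15) and Tgfbr3 (-0.022) in mesangial-like wells with limma on mean log values, and Tgfbr2 in immune-like wells without the replicate block (-0.00484). Leaving out a pool gave log2 fold changes in endothelial-like wells from -1.26 to 0.019 for Ltbp1, -0.28 to 0.98 for Tgfbr1, -1.61 to 0.41 for Tgfbr3 and -3.37 to 1.66 for Ccn2. In mesangial-like wells they ran from -2.99 to 2.62 for Tgfbr1, -0.15 to 0.48 for Tgfbr3, -2.37 to 0.034 for Ccn1 and -2.07 to 0.055 for Ccn2, and in immune-like wells from -0.76 to 2.16 for Tgfbr2, -4.27 to 1.00 for Ccn2 and -0.16 to 6.14 for Tgfbi. Without a change of sign they ran from -1.21 to -0.14 for Tgfbr2, -2.71 to -0.35 for Ccn1 and -3.95 to -2.53 for Tgfbi in endothelial-like wells, -0.51 to -0.029 for Tgfbr2 in mesangial-like wells and 0.11 to 3.42 for Tgfbr1 in immune-like wells. These fits also drop the block, and the causes were not tested.

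Members called stayed at 0 in each class under every alternative run except immune-like wells with a pool left out (0 to 1, the 1 without Control replicate 1). Without the replicate block 0 members were called in each class. Genes called ran from 0 to 84 in endothelial-like (84 by DESeq2, 37 by limma), 1 to 24 in mesangial-like and 0 to 452 in immune-like wells, over all alternatives. Of 10 members, 8 kept their highest class in thinned wells and 8 at Leiden resolution 1.2, 9 with means of log values and all 10 in the other settings. At 15% mitochondrial reads and in thinned wells mesangial-like and immune-like sums, and with no well filter immune-like sums, had under 5 wells in a pool and were not run. Immune-like control sums rest on 5 wells a pool, which limits what can be seen there.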
